A study of Mus musculus and Rattus norvegicus with 37 samples.

Results

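Hepcidin and 9 further genes of hepatic iron handling (Hamp, Hamp2, Tfrc, Tfr2, Trf, Slc40a1, Fth1, Bmp6, Id1 and Tmprss6) were followed by gene name through 4 tables of normalized RNA-seq counts from the livers of 21 mice and 16 rats. All 10 genes were found among the 48059 named entries of each mouse table, and 8 among the 32549 named entries of each rat table. Hamp2 and Trf were not listed in the rat tables under these names, and rat transferrin, listed as Tf, is given beside the members without being counted. With a minimum mean of 10 normalized counts, 10 members could be tested in each mouse table, 7 in the table of fatty and lean rats and 6 in the table of BT2-treated rats.

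Female C57BL/6J wild type mice (9 to 11 weeks old) and floxed littermates of liver-specific Sirt1 knockouts (15 to 20 weeks old) were pooled as WT/Floxed, and 15 to 20 week-old knockouts formed the group labelled L-Sirt1 KO, all on chow. LNA29, a pair of locked nucleic acid inhibitors that together cover miR-29a and miR-29b/c, was given as 1 subcutaneous injection of 20 mg/kg of each inhibitor, and fed livers were taken on day 7 together with those of saline-treated mice. The WT/Floxed livers comprised 8 with LNA29 (4 WT and 4 floxed) and 5 with saline (3 WT and 2 floxed), and the L-Sirt1 KO livers 4 with LNA29 and 4 with saline. The inhibitors were given to the whole animal and not to the liver alone. Male Zucker fatty rats (ZFR), which carry the fa/fa mutation of the leptin receptor, were compared with Zucker lean rats (ZLR) at 5.5 months (4 livers each). At 3 months, ZFR received BT2, an inhibitor of the kinase that restrains branched-chain amino acid breakdown, or the dimethylsulfoxide vehicle daily for 1 week (20 mg/kg BT2, 4 livers each), and all 8 of these rats carried the fa/fa mutation. Sirt1 counts did not separate the genotypes. They were 493 to 699 normalized counts in the WT/Floxed livers and 535 to 617 in the livers labelled L-Sirt1 KO, in tables scaled separately. How far a count over the whole gene reads the deleted part was not tested. The study also measured hepatic Sirt1 by RT-qPCR in both genotypes, and those values are not given here.

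Hepcidin, the peptide made from Hamp, is released by hepatocytes and limits the entry of iron into plasma by binding ferroportin (Slc40a1), the iron exporter, and driving its loss from the cell surface. Hamp transcription is raised by BMP/SMAD signalling, whose ligand Bmp6 comes largely from sinusoidal endothelial cells and whose target Id1 is a common readout, and by inflammatory cytokines through STAT3. Transferrin (Trf) carries iron in plasma, transferrin receptor 1 (Tfrc) takes it into cells, transferrin receptor 2 (Tfr2) takes part in sensing it in hepatocytes, and Tmprss6 is a protease that dampens the BMP signal.

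In mice, Hamp and Hamp2 are neighbouring copies on the minus strand of chromosome 7, at chr7:30942368-30944032 and chr7:30922372-30924681 of GRCm38, with 17686 bases between them and 3 exons each. The 150 bases before each start site, from RefSeq on GRCm38.p6 and written 5′ to 3′, are shown because Hamp and Hamp2 differed in their values below. The RefSeq start of Hamp2 used here is that of 2 of its 3 GENCODE transcripts (30924181), while the third starts upstream at 30924681 and sets the end of the gene span above, so that the printed Hamp2 window lies in an intron of that transcript. For Hamp the RefSeq start lies just inside the GENCODE start (30944032), so that the printed Hamp window overlaps the gene span by a few bases. Distances to a start site depend on this choice. Capitals mark GGCGCC, the core of the BMP element known from the hepcidin promoter, and TTCTTGGAA, its STAT element.
Hamp promoter, chr7:30944030-30944179, minus strand: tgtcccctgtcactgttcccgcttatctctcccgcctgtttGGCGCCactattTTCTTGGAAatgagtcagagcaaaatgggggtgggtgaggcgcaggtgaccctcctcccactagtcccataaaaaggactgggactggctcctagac
Hamp2 promoter, chr7:30924182-30924331, minus strand: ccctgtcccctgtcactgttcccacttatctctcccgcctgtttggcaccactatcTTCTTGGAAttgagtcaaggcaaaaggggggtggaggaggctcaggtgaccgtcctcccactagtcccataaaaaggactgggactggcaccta
GGCGCC began 109 bases before the start site of Hamp and was not in the Hamp2 window, where the aligned bases read GGCACC, whereas TTCTTGGAA was in both, 97 and 94 bases before the start. Searched on both strands over windows from 250 bases before to 50 after the start, GGCGCC was in 11.87% and TTCTTGGAA in 0.42% of 32851 RefSeq promoters. The Hamp and Hamp2 windows were identical at 276 of 297 aligned bases (92.9%). The transcripts, 410 and 437 bases long, shared a longest identical run of 87 bases. No 100-base window of Hamp2 was found unchanged in Hamp (0 of 338), and the closest match in Hamp had from 1 to 63 mismatches with a median of 6, at most 5 of them in 159 windows (47%). Many reads of 100 bases could thus be told apart only by few bases, others by many, and the split of reads between Hamp and Hamp2 is uncertain.

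The mature miR-29 sequences that LNA29 targets, from RefSeq, share the seed at bases 2 to 8, in capitals.
mmu-miR-29a-3p: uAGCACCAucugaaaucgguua
mmu-miR-29b-3p: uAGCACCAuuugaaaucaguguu
mmu-miR-29c-3p: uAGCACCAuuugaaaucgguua
A match to that seed, TGGTGCT, was in the longest annotated 3′ UTR of 0 of the 10 members and of 2737 of 20928 mouse genes (13.1%) on GRCm38.

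Messages of iron handling also hold iron-responsive elements, hairpins whose CAGTGN loop binds the iron regulatory proteins. When iron is low, these elements keep Tfrc mRNA from being degraded and hold back translation of Fth1, the ferritin heavy chain, and of Slc40a1, so that Tfrc is the member whose mRNA level reads them. The elements found in the mouse genes by a search for a CAGTGN loop closed by 5 paired bases after an unpaired C are printed with the loop in capitals.
Tfrc 3′ UTR, chr16:32631219-32631247, plus strand: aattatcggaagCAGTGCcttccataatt
Tfrc 3′ UTR, chr16:32631598-32631626, plus strand: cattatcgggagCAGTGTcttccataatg
Tfrc 3′ UTR, chr16:32631663-32631691, plus strand: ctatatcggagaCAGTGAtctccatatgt
Tfrc 3′ UTR, chr16:32631710-32631738, plus strand: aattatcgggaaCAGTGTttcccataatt
Slc40a1 5′ UTR, chr1:45925465-45925493, minus strand: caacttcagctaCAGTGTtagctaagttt
Fth1 5′ UTR, chr19:9982732-9982760, plus strand: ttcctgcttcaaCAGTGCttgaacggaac
Tfrc held 4 of them in its 3′ UTR, and Slc40a1 and Fth1 held 1 each in the 5′ UTR. The same pattern was in the 5′ UTR of 22 (0.105%) and the 3′ UTR of 120 (0.57%) of 20928 genes. The members without such an element and outside the Hamp locus lie at chr5:137569840-137587481 (Tfr2), chr13:38345107-38500302 (Bmp6), chr2:152736251-152737410 (Id1), chr15:78439667-78468634 (Tmprss6) and chr9:103204001-103230444 (Trf) of GRCm38. Bmp6 overlaps Txndc5 and 4930579J19Rik on the other strand and Trf overlaps Gm20425 on its own strand, so reads there may be shared.

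Normalized counts are reads per gene divided by a size factor of the library, so that a gene is compared between livers of 1 table. Levels of different genes are compared only after division by transcript length, except in the ratio of Hamp2 to Hamp below. Per kilobase of transcript and per M (mega) normalized counts, the mean levels in the 5 WT/Floxed saline livers were 6753 for Trf, 3152 for Hamp, 914 for Fth1, 911 for Hamp2, 159 for Tmprss6, 126 for Tfr2, 43.9 for Slc40a1, 14.5 for Id1, 3.77 for Tfrc and 1.19 for Bmp6. The ranges over the livers overlapped between the neighbours Fth1 and Hamp2, Slc40a1 and Id1, and Id1 and Tfrc, and between no other neighbours in this order. Members also differed in how steady they were. In these 5 livers the highest Tfr2 value was 1.08 times the lowest and that of Tmprss6 1.18 times, whereas the ratio was 3.13 for Slc40a1, 5.04 for Tfrc and 5.27 for Id1.

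The libraries held an estimated 42.6 to 78.0 M (mega) reads in mice and 0.188 to 58.5 M reads in rats. In rats depth differed widely within the groups, from 0.188 to 56.4 M reads in ZLR and from 0.952 to 58.5 M in ZFR. ZLR replicates 3 and 4 were among the shallowest and ZLR replicates 1 and 2 and ZFR replicate 1 the deepest. The reads behind rat values are given for some genes only, and values printed without them can also rest on few reads. Among 8 hepatocyte markers, none was at 0 in any group. Livers were bulk tissue, in which fewer cells of a type and less RNA per cell cannot be told apart. Changes were tested with limma on log2(normalized count + 1), with p-values adjusted over all genes tested. Calls in mice needed a fold change over 1.2 at a mean over 50, with p below 0.05 and adjusted p below 0.2, calls in rats an adjusted p below 0.05.

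LNA29 was compared with saline in WT/Floxed mice to ask what suppression of miR-29 does to the liver. Of the 10 members only Hamp2 was called, and it fell 1.97-fold. Against this 1 of 10 stood 4.35% of the 15827 genes tested. The median log2 fold change was -0.05 over the members and 0.00 over all genes. No member separated the groups without overlap, which 1.51% of genes did.

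Hamp2 was at 31076, 24487, 24746, 16398 and 23269 normalized counts in saline replicates 1 to 5. With LNA29 it ranged from 4729 to 24196 with a median of 13949, and 7 of the 8 LNA29 livers lay below the lowest saline liver, while LNA29 replicate 1 lay within the saline range. The means were 23995 ± 5225 (SD, n = 5) and 13295 ± 6069 (SD, n = 8). The log2 fold change was -0.98 (95% CI -1.64 to -0.31), a 1.97-fold decrease, with an adjusted p of 0.164 by limma and a two-sided exact permutation p of 0.0194. The difference pointed the same way in WT mice (-0.79) and floxed mice (-1.17). It also did so within the 3 groups of livers that share a flow cell code in the sample descriptions (-1.34, -0.60 and -1.18). These groups held only 1, 2 and 2 saline livers. The call was lost without any 1 of 7 of the 13 livers (LNA29 replicates 6, 7 and 8, saline replicates 1, 2, 3 and 5, adjusted p 0.206 to 0.317), with a log2 fold change between -1.12 and -0.78 over all 13 omissions.

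Hamp itself, the copy that makes hepcidin, was at 75983, 107210, 75647, 64284 and 64483 in the saline livers. With LNA29 it ranged from 39839 to 107575 with a median of 66739. The groups overlapped over nearly their whole range, with means of 77522 ± 17554 (SD, n = 5) and 66796 ± 21427 (SD, n = 8). The log2 fold change of Hamp was -0.25 (95% CI -0.70 to 0.20, limma adjusted p 0.675), an interval that holds 0 as well as decreases.

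Because reads may be split between both copies, their sum and their ratio were examined too, the ratio after the values had been seen. Summed, Hamp and Hamp2 had a log2 fold change of -0.39 (limma adjusted p 0.468). The ratio was taken of normalized counts, without division by transcript length. Hamp2 was 22.8% to 40.9% of Hamp within a saline liver (31.6% ± 7.44, SD, n = 5) and 10.3% to 30.98% within an LNA29 liver (20.02% ± 7.39, SD, n = 8). The log2 ratio was lower with LNA29 by -0.72 (two-sided exact permutation p 0.0264, unadjusted), and the groups overlapped. Gm44662 lies on the other strand across both genes, and the strand setting of the counts is not given in the sources used here. It held 50.3 to 187 normalized counts in the WT/Floxed livers.

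**Figure D1:**
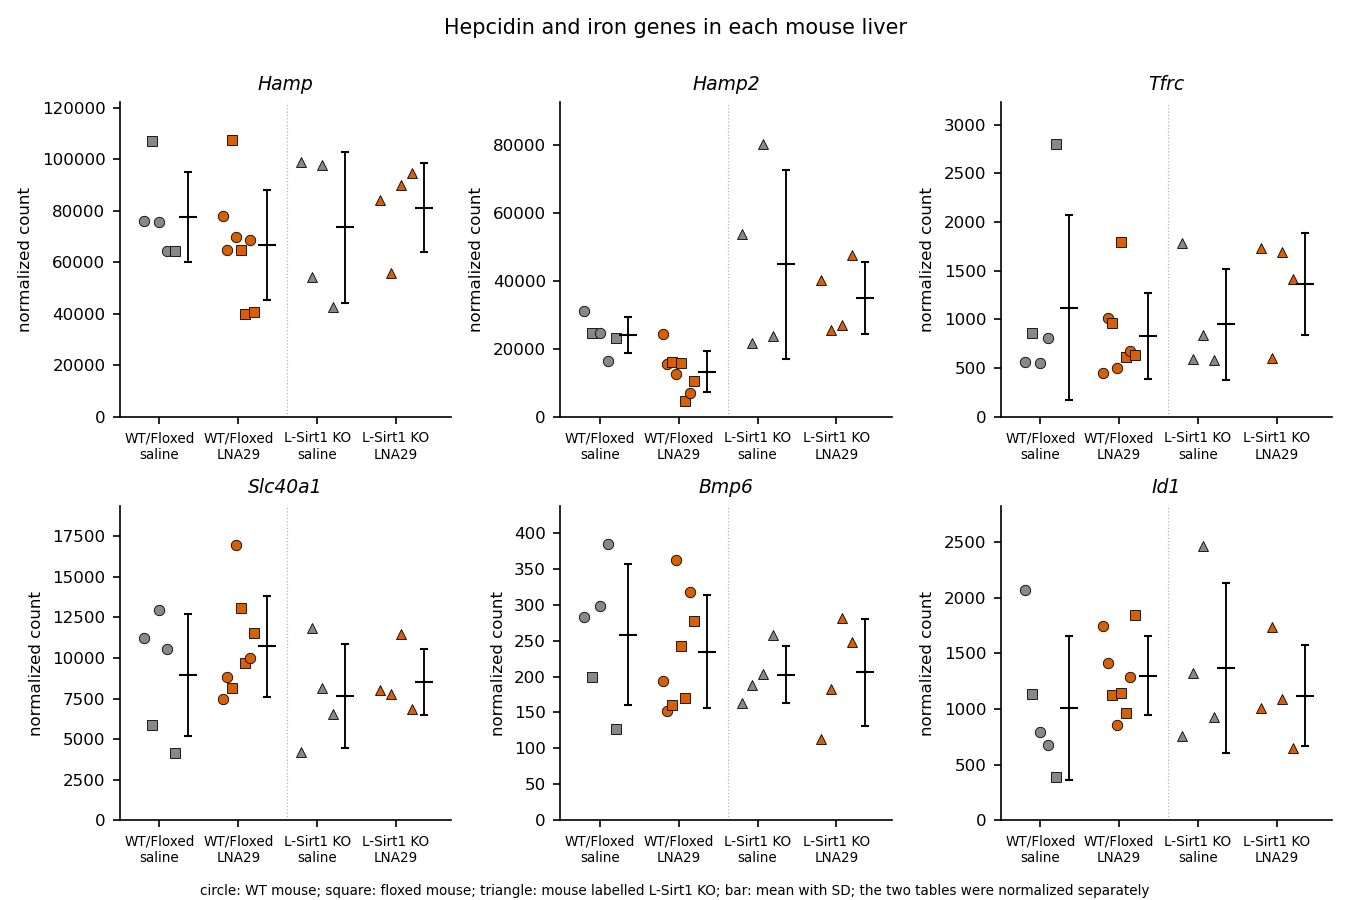
Normalized counts of 6 members in each mouse liver by group (y axes from 0; circles WT, squares floxed, triangles L-Sirt1 KO; bars are the mean with SD). In WT/Floxed mice 7 of 8 LNA29 livers lie below all saline livers for Hamp2, while the groups overlap for Hamp and the other genes shown.

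The uptake and transport genes did not pass the test in WT/Floxed mice. Tfrc was at 564, 864, 556, 812 and 2801 in the saline livers and at 447 to 1795 with LNA29 (median 655). The highest Tfrc value of each treatment group belonged to a floxed mouse numbered 5. For Tfrc the log2 fold change was -0.27 (95% CI -1.09 to 0.55, limma adjusted p 0.828). Tfr2 ranged from 22733 to 24496 with saline and from 20221 to 25915 with LNA29, a log2 fold change of -0.03 (95% CI -0.17 to 0.11). Trf, the plasma carrier, had a log2 fold change of 0.01 (95% CI -0.19 to 0.21). The intervals of Tfr2 and Trf were the narrow ones.

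Storage and export genes overlapped as well. Slc40a1 was at 11217, 5885, 12990, 10531 and 4146 in the saline livers and ranged from 7496 to 16966 with LNA29 (median 9852). Its log2 fold change was 0.34 (95% CI -0.22 to 0.89, limma adjusted p 0.650). Both of the low saline livers were floxed, and the log2 difference was 1.08 within floxed mice and -0.16 within WT mice. Fth1 had a log2 fold change of -0.07 (95% CI -0.25 to 0.11).

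Among the regulators, Bmp6 was at 282, 200, 298, 384 and 127 in the saline livers and at 152 to 361 with LNA29 (median 218), a log2 fold change of -0.11 (95% CI -0.69 to 0.47). Id1, its transcriptional readout, was at 2066, 1136, 790, 676 and 392 with saline and at 852 to 1844 with LNA29 (median 1217). For Id1, 3 of the 5 saline livers lay below every LNA29 liver and 1 lay above all of them. For Id1 the log2 fold change was 0.53 (95% CI -0.13 to 1.19, limma adjusted p 0.508). Without saline replicate 1 it was 0.85 with an adjusted p of 0.183, which met the mouse criteria. Within the 3 flow cell codes the log2 difference of Id1 was 0.31, -0.12 and 1.58. That of Tfrc was 0.56, 0.12 and -1.20, so that neither direction held throughout. Hamp, which was not called, was lower in each (-0.42, -0.15 and -0.28), the first of these against 1 saline liver. By background the log2 difference of Hamp was -0.03 in WT mice and -0.52 in floxed mice. Tmprss6 differed little, at 0.04 (95% CI -0.08 to 0.16).

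Wider lists around the members held further calls in WT/Floxed mice, where 4.35% of the 15827 genes tested were called. List counts are given beside that share and were not tested against it. Of 26 tested genes of the BMP/SMAD pathway to hepcidin 2 fell and 0 rose. Hfe2 (hemojuvelin, the BMP co-receptor) went from 5172 ± 484 (SD, n = 5) to 3990 ± 446 (SD, n = 8) with no overlap (log2 fold change -0.38, limma adjusted p 0.0485). Hfe, whose loss causes hereditary iron overload, went from 2908 ± 311 to 2237 ± 271 (-0.38, limma adjusted p 0.0713). Of 17 genes of the inflammatory pathway 3 fell, which were the acute-phase genes Saa2 (-1.48, limma adjusted p 0.00237), Lcn2 (-1.02, 0.00984) and Saa1 (-0.91, 0.0467), and 1 rose, the interleukin 1 receptor Il1r1 (0.40, 0.108). The medians of these lists were 0.05 and -0.05, next to 0.00 over all genes.

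Of 23 genes of iron uptake, storage, export and regulation 2 fell, Lcn2 again and Ftl1, the ferritin light chain, which went from 177148 ± 22373 to 140000 ± 16820 (-0.34, limma adjusted p 0.127), with a list median of 0.03. Of 21 heme genes 2 rose, the heme transporter family member Flvcr2 (303 ± 56.3 to 593 ± 130, log2 fold change 0.96, limma adjusted p 0.00633) and the biliverdin reductase Blvrb (0.42, 0.116), and Uros of heme synthesis fell (-0.33, 0.150), with a list median of 0.00. Of 9 erythroid genes 0 were called, and the largest change was that of Klf1 (-0.48, 0.363). Ferritin light and heavy chain thus differed in their calls, which is no test of a difference between them.

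Markers of other cells were read beside these values. Summed Kupffer cell and macrophage markers were 13479 to 23653 in the saline livers (median 21291) and 7343 to 40601 with LNA29 (median 14237), and 0 of 8 were called. Median log2 fold changes were -0.43 over these markers, -0.17 over sinusoidal endothelial and 0.08 over hepatocyte markers, next to 0.00 over all genes. Of 7 listed sinusoidal endothelial markers, the cells that make Bmp6, Lyve1 fell (-0.51, limma adjusted p 0.165), with sums of 11696 to 14872 and 9492 to 14888. Of the 8 hepatocyte markers Apoa1 rose (0.51, 0.0312) and Tat fell (-0.48, 0.0994). Their part in the member values was not tested.

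The same comparison in mice labelled L-Sirt1 KO addressed whether the response needs hepatic Sirt1. No member was called (0 of 10, with 1.84% of 15901 genes called), and the groups overlapped for every member, where 6.95% of genes did not overlap. By unadjusted limma p under 0.05, 1 member (Tfr2) and 11.2% of genes passed. The median log2 fold change was -0.04 over the members and -0.00 over all genes.

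Hamp2 was at 53641, 21636, 80194 and 23616 in saline replicates 1 to 4 and at 40106, 25528, 27001 and 47505 with LNA29. Saline replicates 1 and 3 were high and 2 and 4 low, and the LNA29 values fell between them. The log2 fold change of Hamp2 was -0.19 (95% CI -1.10 to 0.72, limma adjusted p 0.895). Hamp was high and low in the same saline livers, at 99141, 54385, 97923 and 42807, and was 84312, 55991, 89943 and 94757 with LNA29 (0.21, 95% CI -0.43 to 0.85, limma adjusted p 0.821). Hamp2 was 39.8% to 81.9% of Hamp with saline (57.7% ± 17.6, SD, n = 4) and 30.0% to 50.1% with LNA29 (43.3% ± 9.07, SD, n = 4), a log2 difference of -0.39 (two-sided exact permutation p 0.257).

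The difference between the genotypes in their LNA29 response was tested directly. It was -0.79 for Hamp2 (WT/Floxed minus L-Sirt1 KO, 95% CI -1.93 to 0.35, limma adjusted p 0.708) and -0.46 for Hamp (95% CI -1.24 to 0.31, limma adjusted p 0.757). None of 10 members was called in that test (0 of 10, against 0.0448% of 15617 genes). A call for Hamp2 in WT/Floxed mice and none in mice labelled L-Sirt1 KO was therefore not shown to be a difference between them.

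**Figure D2:**
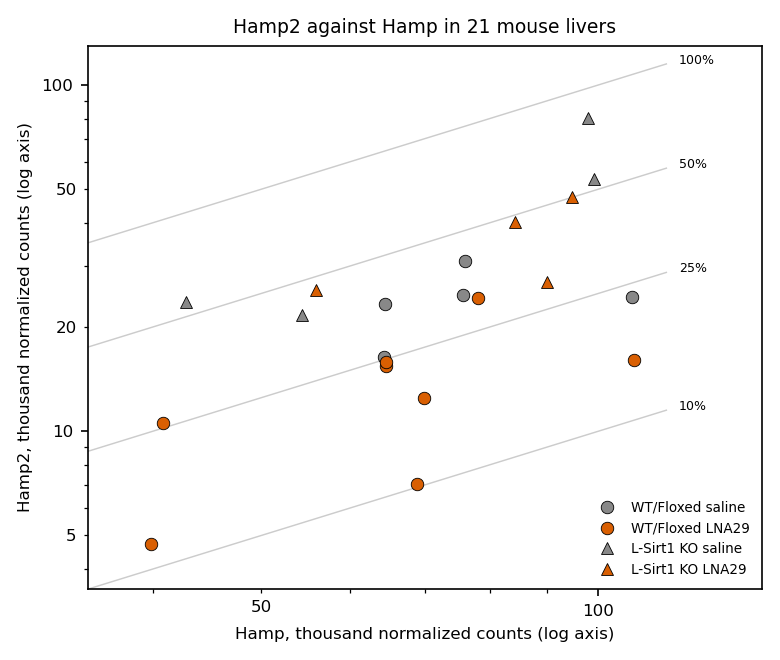
Hamp2 against Hamp in each of 21 mouse livers (normalized counts in the scale the logarithmic axes state; circles WT/Floxed, triangles L-Sirt1 KO, orange LNA29, grey saline; lines mark Hamp2 at a fixed percent of Hamp). WT/Floxed livers spread from 10.3% to 30.98% with LNA29 and from 22.8% to 40.9% with saline. Livers labelled L-Sirt1 KO spread from 30.0% to 50.1% with LNA29 and from 39.8% to 81.9% with saline. The counts come from tables normalized separately.

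Among these 10 genes, Tfr2 had the smallest unadjusted p in the knockout table. It was at 22121, 26070, 24128 and 27717 with saline and at 20619, 21993, 22531 and 21595 with LNA29. All but 1 of the LNA29 livers lay below the lowest saline liver. The log2 fold change of Tfr2 was -0.20 (95% CI -0.40 to -0.01) with a limma adjusted p of 0.433 and a two-sided exact permutation p of 0.0571, where 0.0286 is the smallest that 4 livers against 4 allow. Tfrc was at 1784, 592, 842 and 582 with saline and at 1732, 607, 1692 and 1411 with LNA29 (0.57, SE 0.42, limma adjusted p 0.657), so that 1 saline liver and 3 LNA29 livers were high. The remaining members lay between -0.22 (Id1) and 0.22 (Slc40a1), with Fth1 at -0.16, Trf at -0.05, Bmp6 at -0.04 and Tmprss6 at 0.02.

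In the wider lists 1 gene was called in mice labelled L-Sirt1 KO, where 1.84% of 15901 genes were called. Cebpa, a hepatocyte transcription factor that acts on the Hamp promoter, fell from 23993 ± 3191 to 17109 ± 2288 (SD, n = 4 each, log2 fold change -0.49, limma adjusted p 0.181), 1 of 17 genes of the inflammatory list. None of 26 BMP/SMAD, 23 iron, 21 heme and 10 erythroid genes was called, and the largest changes there were those of Smad9 (0.45, limma adjusted p 0.734), Lcn2 (-1.33, 0.422), Alas1 (-1.19, 0.385) and Epor (-0.43, 0.505). List medians were 0.01, -0.15, -0.02, -0.08 and -0.25 for the BMP/SMAD, inflammatory, iron, heme and erythroid genes, next to -0.00 over all genes. Beside these, 2 of 8 Kupffer cell markers fell (Vsig4 -0.54 and Clec4f -0.29), with sums of 16244 to 19527 with saline and 13057 to 16402 with LNA29. Median log2 fold changes were -0.34 over the 8 Kupffer cell markers, -0.07 over sinusoidal endothelial and 0.23 over hepatocyte markers. Of 7 sinusoidal endothelial markers 2 fell (Lyve1 -1.17 and Stab1 -0.53), with sums of 13070 to 14168 and 11421 to 12884, and their part in the member values was not tested.

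In fatty against lean rats, hepcidin and transferrin receptor 1 moved in opposite directions. Hamp was 2.01-fold lower and Tfrc 2.90-fold higher in ZFR, 2 of 7 tested members against 4.29% of 8765 genes called. Both had groups that did not overlap, as 14.4% of genes did. The median log2 fold change was 0.05 over the members and 0.07 over all genes.

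Hamp was at 982, 1200, 1254 and 1483 normalized counts in ZLR replicates 1 to 4 and at 685, 606, 556 and 577 in ZFR. Every fatty liver lay below every lean liver, and the ZFR values were close together. The counts rested on 25619, 27795, 119 and 142 reads in ZLR and on 21297, 515, 266 and 371 in ZFR. The means were 1230 ± 206 and 606 ± 56.7 (SD, n = 4 each), a log2 fold change of -1.01 (95% CI -1.30 to -0.71) with a limma adjusted p of 0.00259. The two-sided exact permutation p was 0.0286, the smallest that 4 livers against 4 allow. Within replicates 1 and 2 the log2 difference of Hamp was -0.75, and within replicates 3 and 4, which carry another flow cell code, it was -1.27.

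Tfrc was at 88.2, 55.0, 52.7 and 52.2 in ZLR and at 195, 226, 178 and 126 in ZFR. All fatty livers lay above all lean livers. The last 2 lean values rested on 5 reads each, with exact Poisson 95% intervals of 17.1 to 123 and 16.95 to 122 normalized counts, which cover counting error only. The lowest fatty value, 126, rested on 81 reads, with an interval of the same kind of 100.1 to 156.6 that overlaps both of these. The deep lean libraries gave the same order, with 2301 and 1273 reads behind 88.2 and 55.0 against 6065 reads behind 195 in ZFR replicate 1. Tfrc had a log2 fold change of 1.54 (95% CI 1.02 to 2.05, limma adjusted p 0.00515, two-sided exact permutation p 0.0286), with 1.58 within replicates 1 and 2 and 1.49 within replicates 3 and 4. Both calls held in all alternative settings tried.

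**Figure D3:**
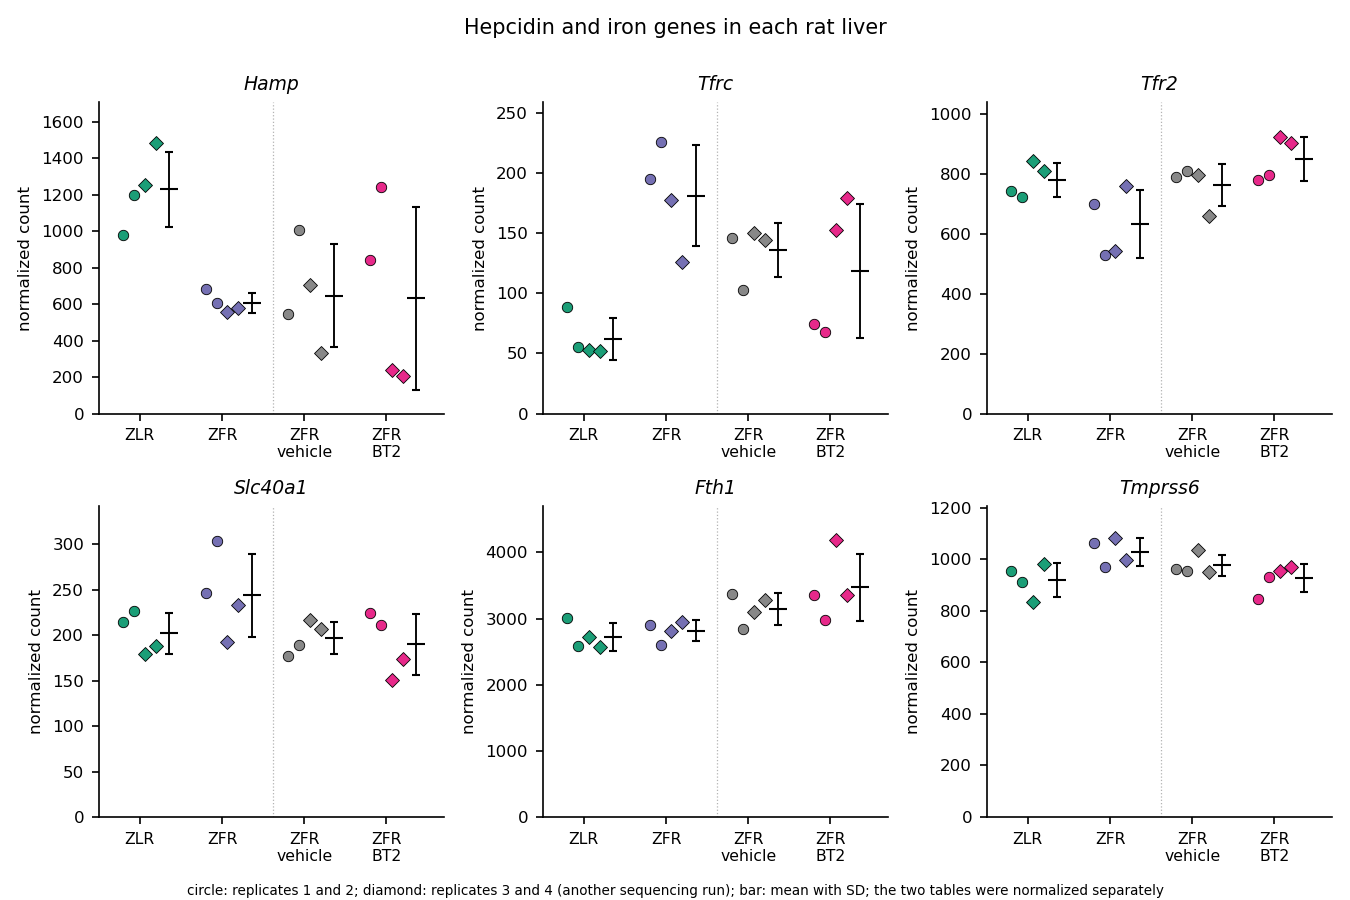
Normalized counts of 6 members in each rat liver by group (y axes from 0; circles replicates 1 and 2, diamonds replicates 3 and 4 with another flow cell code; bars are the mean with SD). Hamp is lower and Tfrc higher in all 4 ZFR livers than in all 4 ZLR livers, while BT2 and vehicle livers overlap.

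Rat transferrin, listed as Tf, was at 59755, 65800, 70687 and 66326 in ZLR and at 89789, 88623, 88600 and 89100 in ZFR. The fatty livers lay in a narrow range above all lean livers. Tf had a log2 fold change of 0.44 (95% CI 0.25 to 0.64, limma adjusted p 0.0213). The call was lost in 3 of 9 other settings, which were no minimum count (limma adjusted p 0.753), the replicate number as a block (0.145) and only the libraries of at least 0.5 M reads (0.0949), and in 4 of 8 omissions of a single liver (ZLR replicate 2 and ZFR replicates 1, 3 and 4, up to 0.0801).

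The other rat members did not pass the test. Tfr2 was at 741, 724, 842 and 811 in ZLR and 698, 530, 542 and 760 in ZFR (-0.32, 95% CI -0.61 to -0.02, limma adjusted p 0.272), with overlap through 1 fatty liver. Slc40a1 was at 215, 226, 179 and 188 in ZLR and 246, 304, 192 and 233 in ZFR (0.26, 95% CI -0.09 to 0.60, limma adjusted p 0.445). The Slc40a1 values of 179 and 188 in ZLR rested on 17 and 18 reads. A second entry of the same name, at 0, 0, 63.2 and 0 in ZLR and 8.27, 37.7, 33.4 and 15.6 in ZFR, had an adjusted p of 0.336 by limma. Fth1 (0.05, 95% CI -0.14 to 0.24) and Tmprss6 (0.16, 95% CI -0.04 to 0.36, limma adjusted p 0.402) differed little. Id1 and Bmp6 could hardly be read in most rat libraries. Id1 rested on 1 and 3 reads in ZLR replicates 3 and 4 (-0.24, limma adjusted p 0.837). In the deepest libraries Id1 rested on 274 and 126 reads in ZLR (10.5 and 5.44) and on 262 in ZFR replicate 1 (8.43). Bmp6 stayed below the minimum, at 0 to 3.93 in ZLR and 1.18 to 6.27 in ZFR. It rested on 82 and 91 reads in ZLR replicates 1 and 2 and on 83 in ZFR replicate 1.

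**Figure D4:**
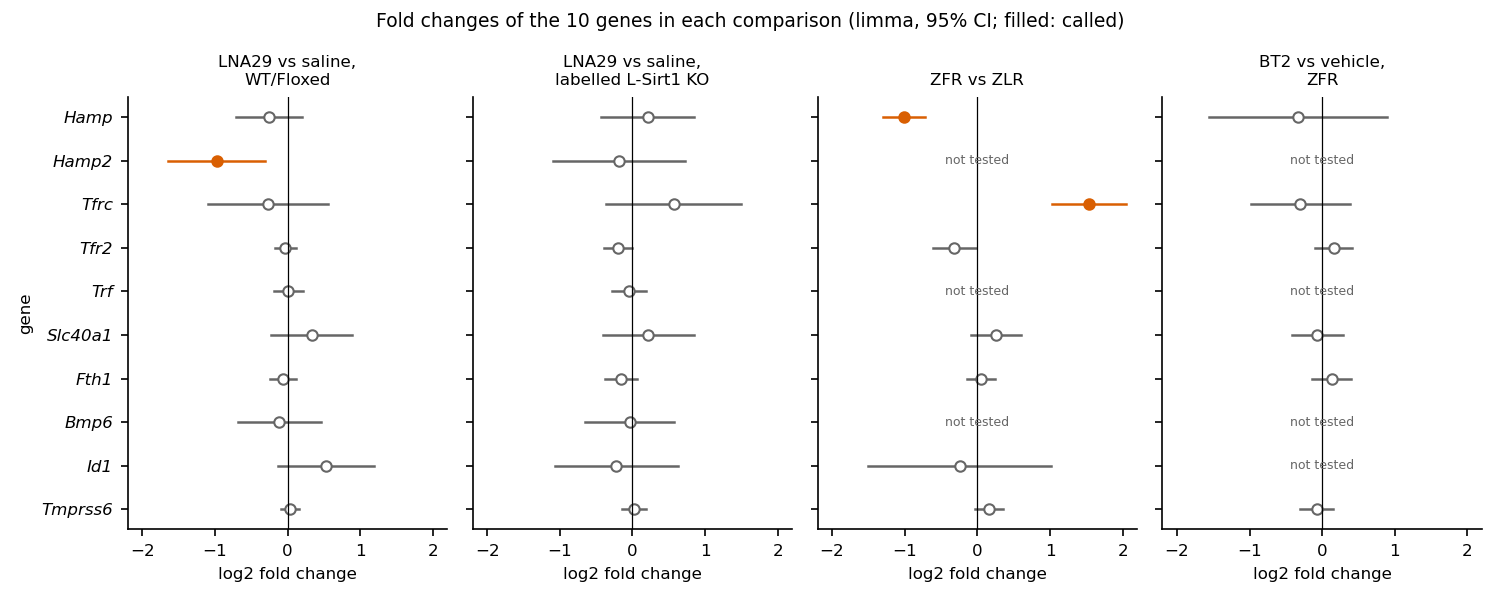
Log2 fold changes of the 10 genes with 95% confidence intervals from limma in the 4 comparisons (filled orange points were called, open points were not, and genes below the minimum or not listed are marked as not tested). The filled points are Hamp2 in WT/Floxed mice at -0.98, and Hamp at -1.01 and Tfrc at 1.54 in ZFR against ZLR.

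The list counts in ZFR against ZLR stand beside 4.29% of 8765 genes called and were not tested against that share. None of 21 BMP/SMAD genes was called in ZFR against ZLR, and the largest change was that of Bmp5 (1.02, limma adjusted p 0.607). Of 12 inflammatory genes 2 rose. Stat3, which carries the interleukin 6 signal to the Hamp promoter, went from 184 ± 18.9 to 330 ± 12.1 (SD, n = 4 each, log2 fold change 0.85, limma adjusted p 0.00235). Lcn2, an acute-phase carrier of iron-binding siderophores, was at 2.07, 2.505, 0 and 10.4 in ZLR (54, 58, 0 and 1 reads) and at 118.5, 151.8, 146.2 and 295.5 in ZFR (3681, 129, 70 and 190 reads), with a limma adjusted p of 0.00122. The lean mean of Lcn2 was below the minimum, so it entered the test only through the fatty livers and had to differ, and its call adds no support to either list that holds it. Of 17 iron genes 2 rose, Lcn2 and the ferroxidase ceruloplasmin (Cp, 3844 ± 275 to 5038 ± 233, log2 fold change 0.39, limma adjusted p 0.0282). Of 20 heme genes 1 rose, the hemoglobin binder haptoglobin (Hp, 18337 ± 1628 to 25656 ± 3237, 0.48, limma adjusted p 0.0433). None of 3 tested erythroid genes was called, with Tmcc2 furthest at 2.16 (limma adjusted p 0.207). The list medians were -0.05, 0.22, -0.06, 0.08 and 1.24 for the BMP/SMAD, inflammatory, iron, heme and erythroid genes, next to 0.07 over all genes.

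Several other measures moved with the rat groups. Summed red cell markers were 415 to 1096 in ZLR and 941 to 2358 in ZFR, and 0 of 2 tested ones were called. Of 8 hepatocyte markers 3 fell in ZFR (Cps1 -0.58, Ttr -0.43 and Apob -0.39), with sums of 246988 to 313254 in ZLR and 198498 to 294208 in ZFR. Of 7 sinusoidal endothelial markers Stab2 rose (1.16, limma adjusted p 0.0327), and 0 of 7 Kupffer cell markers were called, with sums of 459 to 664 in ZLR and 508 to 846 in ZFR. Their part in the Hamp and Tfrc values was not tested.

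BT2 was compared with vehicle in fatty rats. None of 6 tested members was called, none separated the groups and 0% of 8533 genes were called by limma, while 2.98% of genes did not overlap. By unadjusted p under 0.05, 0 members and 4.02% of genes passed. The medians were -0.07 over the members and 0.01 over all genes.

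Hamp was at 546, 1004, 705 and 330 with vehicle and at 840, 1243, 237 and 207 with BT2. The BT2 livers fell into 2 high and 2 low values, and the low ones were replicates 3 and 4, which carry another flow cell code than replicates 1 and 2. The log2 difference was 0.46 within replicates 1 and 2 and -1.12 within replicates 3 and 4, and -0.33 over all 8 livers (95% CI -1.55 to 0.90, limma adjusted p 0.936). The direction for Hamp thus did not hold within both pairs. The low values rested on 177 and 38 reads, and the vehicle liver at 330 on 32 reads.

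Tfrc was at 146, 103, 150 and 145 with vehicle and at 74.7, 68.1, 153 and 179 with BT2. Here the BT2 replicates 1 and 2 were low and 3 and 4 high, the reverse of their Hamp values, and a relation of Tfrc to Hamp was not tested in rats. The BT2 values of Tfrc rested on 21, 51, 114 and 33 reads, and the vehicle value of 145 on 14 reads. The log2 differences of Tfrc were -0.77 and 0.17 within the pairs and -0.30 over all livers (95% CI -0.99 to 0.38, limma adjusted p 0.901). Tfr2 (0.16), Fth1 (0.13), Slc40a1 (-0.07), Tmprss6 (-0.08) and Tf (0.04) had limma adjusted p-values between 0.897 and 0.972. Id1 and Bmp6 were below the minimum, resting on 0 to 28 reads a liver. In the wider lists 0 of 18 BMP/SMAD, 12 inflammatory, 17 iron, 19 heme and 3 erythroid genes were called, as were 0% of all 8533 genes. The largest changes there were those of Smad7 (-1.08), Socs3 (2.14), Lcn2 (1.69), the heme-degrading enzyme Hmox1 (1.51) and Alas2 (1.06) of heme synthesis, each with a limma adjusted p of 0.897. The list medians were 0.06, 0.28, 0.13, -0.01 and 0.20, next to 0.01 over all genes.

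Whether Hamp tracked its regulators from liver to liver was examined by correlation of log2 values within each table, in a family of 10 relations of which the 6 in mice are given. Across the 13 WT/Floxed livers Hamp had no detectable relation to Id1 (Pearson r = -0.00, permutation p 0.991, Spearman rho = 0.20, permutation p 0.505) and to Bmp6 (r = -0.08, permutation p 0.790, rho = -0.04, permutation p 0.892). Across the 8 livers labelled L-Sirt1 KO it was r = -0.12 with Id1 (exact p 0.780, rho = -0.17, exact p 0.703) and r = -0.15 with Bmp6 (exact p 0.726, rho = -0.17, exact p 0.703). All 4 of these had adjusted permutation p-values of at least 0.841.

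Hamp and Hamp2 varied together more than that. In WT/Floxed livers r was 0.64 (permutation p 0.0202, adjusted 0.103) and rho 0.59 (permutation p 0.0369, adjusted 0.127), and r fell to 0.27 without the 2 livers farthest from the median of Hamp, so the relation rests on those livers. In livers labelled L-Sirt1 KO r was 0.79 (exact p 0.0206, adjusted 0.103) and rho 0.93 (exact p 0.00223, adjusted 0.0223), and r was 0.70 without the 2 farthest livers. With each treatment group centred on its mean r was 0.60 and 0.86. The shared sequence of the 2 transcripts means that reads exchanged between them could enter these values, which was not tested. No correlation is given for rats. Their ZFR and ZLR values form separate clusters of 4, and their Id1 and Bmp6 reads are few in most libraries.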

How the data were processed

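Liver RNA from 21 mice and 16 rats was sequenced from polyA-selected libraries as single reads of 100 bases. Per the study's methods and the submitters' processing notes, the authors aligned the reads with STAR to mm10 or rn6, quantified genes with Salmon and deposited values divided by DESeq2 size factors, each of the 4 tables on its own. One floxed saline liver had been left out by the authors as an outlier. The deposited values were treated as a signal and not as counts, since only 69.3% to 90.3% of the low values in a library were whole multiples (within 0.01) of the value of 1 read, and no count model was run. Depth was estimated as the sum of normalized counts divided by the value of 1 read, and counts of reads behind a value are such estimates.

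Genes with a mean of at least 10 were tested in R 4.3.3 with limma 3.58.1 (trend) on log2(normalized count + 1), with Benjamini-Hochberg adjustment over all genes of a table. Mouse calls used the study's criteria. Entries sharing a name in rats were kept apart. Single members were also compared by two-sided exact permutation over livers, and p-values measure only the spread between these livers. Promoters, miR-29 and UTRs were read from RefSeq and GRCm38 annotation in Python 3.11.15 (scipy 1.17.1, numpy 2.4.6), and figures drawn with matplotlib 3.10.9. The limma step was tested on simulated data. The members and the wider lists were chosen with earlier results of these data known, and the text names every member, up to 4 called genes of each list or otherwise the gene with the largest change, and the 3 genes most like Hamp. Alternatives were a pseudocount of 10, no minimum, TMM scaling, quality weights, flow cell, WT or floxed background and replicate number as terms, an adjusted p under 0.05, Hamp and Hamp2 summed, precision weights in rats, and each liver left out. Added after the data were seen were a limit of 0.5 M (mega) reads in rats, the summed Slc40a1 entries, the removal of both floxed livers numbered 5, all pairs of members and the ratio of Hamp2 to Hamp. Rat sequences were not used here.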

Additional observations from a re-analysis of the deposited data

Results flagged for a closer look

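Of 72 sets of 4 to 8 livers of 1 group examined for 1 gene, 7 had a liver far from the others by Dixon's test, which chance gives in about 1 of 20. In WT/Floxed saline livers these were Hamp in replicate 2 (107210 normalized counts, nearest 75983) and Tfrc in replicate 5 (2801, nearest 864). Tfrc of WT/Floxed LNA29 replicate 5 was 1795 (nearest 1019). Both livers with high Tfrc came from floxed mice. In rats they were Tfrc in ZLR replicate 1 (88.2, nearest 55.0), Tfrc in ZFR vehicle replicate 2 (103, nearest 145), Tfr2 in ZFR vehicle replicate 4 (658, nearest 790) and Tmprss6 in ZFR vehicle replicate 3 (1038, nearest 961). Tfr2 of ZFR vehicle replicate 4 rested on 64 reads, with an exact Poisson 95% interval of 509 to 844.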

How the results depend on the processing

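Over 42 results and 822 alternative values, 768 kept their side of the threshold and, where they had one, their direction, 27 lost a call, 1 gained one and 26 changed sign. Some results are counts of calls, and most of the others concern genes that were not called. The lost calls were those of Hamp2 and of rat Tf, and most losses of Hamp2 were entered both for the gene and for the count of members called. The members called in WT/Floxed mice were 0 instead of 1 without a minimum, at an adjusted p under 0.05, with Hamp and Hamp2 summed and without both floxed livers numbered 5, and 0 to 1 when single livers were left out. Hamp2 kept its sign throughout (-1.16 to -0.52). In ZFR against ZLR Hamp (-1.11 to -0.83) and Tfrc (1.34 to 1.72) remained called in all 17 alternatives. Sign changes among uncalled genes were, with quality weights, WT/Floxed Tfrc 0.0312, L-Sirt1 KO Hamp2 0.13, ZFR Id1 0.34 and BT2 Slc40a1 0.0495, with precision weights ZFR Id1 0.15, with the flow cell L-Sirt1 KO Bmp6 0.13, with the background WT/Floxed Trf -0.0002 and with the replicate block WT/Floxed Trf -0.0063. Leaving out single livers gave, in WT/Floxed mice, Tfrc -0.45 to 0.14, Bmp6 -0.34 to 0.0551 and Trf -0.0205 to 0.0730. In mice labelled L-Sirt1 KO it gave Hamp -0.0212 to 0.38, Hamp2 -0.46 to 0.17, Slc40a1 -0.0342 to 0.46, Bmp6 -0.22 to 0.22, Id1 -0.46 to 0.11 and Tmprss6 -0.0061 to 0.0520, and with BT2 Hamp -0.79 to 0.0706 and Slc40a1 -0.15 to 0.0371. The causes were not tested.

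Replicate numbers did not pair the livers (correlations of deviations -0.28 to 0.24), and the replicate block left the members called at 1, 0, 2, 0 and 0 in the 4 comparisons and the genotype difference. Under the block Hamp2 was -0.52 in WT/Floxed mice (limma adjusted p 0.143), from replicates 1 to 5 alone.

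Counts of all genes called in WT/Floxed mice were 688, but 396 without a minimum, 1309 with quality weights, 55 with the replicate block, 206 at an adjusted p under 0.05 and 457 without both livers numbered 5. In mice labelled L-Sirt1 KO they were 292, but 160, 802, 145 and 37 in the first 4 of these settings and 103 with the flow cell. In ZFR against ZLR they were 376, but 230, 1179 and 228 in the first 3, and 583 with precision weights. Leaving out single livers gave 381 to 1005 in WT/Floxed mice, 77 to 426 in mice labelled L-Sirt1 KO (77, 85 and 87 without LNA29 replicates 4, 2 and 3), 229 to 397 in ZFR against ZLR, 0 to 2 with BT2 and 0 to 232 for the genotype difference, so the shares of genes called that stand beside the members move as much. For the genotype difference 7 became 1225 with quality weights, 19 with the flow cell and 0 with the block or an adjusted p under 0.05.

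Depth limited the rat genes Id1 and Bmp6, and Tfrc and Slc40a1 in the shallow lean libraries. TMM scaling moved the median of all genes in ZFR against ZLR from 0.07 to 0.12.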

Other observations

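The members were also related to each other in all pairs within the mouse tables (90 relations, chosen after the data were seen), and 0 passed an adjusted p of 0.05. Those with the smallest adjusted p lay in the 13 WT/Floxed livers, while the 8 livers labelled L-Sirt1 KO held larger coefficients with larger p-values, up to r = 0.86 for Slc40a1 and Tmprss6 (exact p 0.00878, adjusted 0.132, rho = 0.52, r = 0.63 without the 2 farthest). WT/Floxed livers with more Slc40a1 (ferroportin) had less Fth1 (Pearson r = -0.79, permutation p 0.00137, adjusted 0.0765, Spearman rho = -0.80, r = -0.59 without the 2 livers farthest in Slc40a1) and more Bmp6 (r = 0.75, permutation p 0.00188, adjusted 0.0765, rho = 0.71, r = 0.69 without the 2 farthest). Bmp6 and Trf had the same adjusted p there (r = -0.75, permutation p 0.00255, adjusted 0.0765). In livers labelled L-Sirt1 KO r was -0.64 for Slc40a1 and Fth1 (exact p 0.0853) and 0.21 for Slc40a1 and Bmp6 (exact p 0.619). The permutations did not keep flow cell codes or WT and floxed mice apart.

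The 3 genes whose log2 values were most like those of Hamp over the 13 WT/Floxed livers, among 12883 genes with a mean of at least 50, were Cutal (r = 0.85), Zfp58 (r = 0.85) and Catsper2 (r = 0.84). This is a description over livers that share treatment groups and flow cells, and Hamp2, at r = 0.64, was not among them.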
